A study of Mus musculus with 25 samples.

Results

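The lymphocyte genes described here are 33 genes that mark T cells, natural killer (NK) cells and B cells, chosen by gene symbol from the raw count table of 24537 genes. All 33 were found in the table, and all 33 had enough counts to be tested beside 14133 genes in all. Of them, 26 belong to T and NK cells and 7 to B cells and antibody-secreting cells. Polyadenylated RNA was sequenced from flash-frozen livers of male C57BL6/J mice aged 24 months, in 25 libraries. The mice carried either a p53 knockout or a Rosa26 knockout, the latter at a locus commonly used as a neutral site, and were fed a control diet or a high-fat diet (HFD). There were 6 libraries each of Control_Rosa26KO, Control_p53KO and HFD_Rosa26KO, and 7 of HFD_p53KO. The labels do not give how the knockouts were made, in which cells they act, or how long the diets lasted. They name each library as a sample of its own without an animal number, so p-values measure the spread between these samples.

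Lymphocytes are a small part of the liver beside its hepatocytes. T cells recognise antigen through a receptor carried by the CD3 chains, with CD4 or CD8 as coreceptor, while NK cells kill without such a receptor and share with cytotoxic T cells the granule proteins perforin and the granzymes. B cells recognise antigen through an antibody held by CD79A and CD79B, and mature into antibody-secreting plasma cells. In mice, T cells that express granzyme K are known to build up in old tissues, and chronically stimulated T cells carry the inhibitory receptors encoded by Pdcd1 and Lag3.

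Library totals ran from 16324283 to 21501281 counts. Trp53, the gene that encodes p53, was lower in the p53KO groups but not absent. Its lowest, median and highest levels were 31.6, 35.7 and 43.7 CPM (counts per 1000000 counts of a library) in Control_Rosa26KO, and 30.6, 37.2 and 43.8 CPM in HFD_Rosa26KO. In Control_p53KO they were 17.2, 23.3 and 35.6 CPM, and in HFD_p53KO 19.6, 26.1 and 31.1 CPM. The highest p53KO library of each diet, labelled Control_p53KO 3 and HFD_p53KO 7, lay inside the Rosa26KO range of that diet. Both libraries also stood apart in the lymphocyte genes. The hepatocyte genes that mark the tissue were abundant in every library, with a summed level of 8 markers between 47570 and 158100 CPM.

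Expressed per length of exon, the lymphocyte genes were low in these whole livers. The median level over all libraries ran from 0.0534 RPKM (CPM per kilobase of exon, with exon lengths from GENCODE M21) for Lef1 to 3.32 RPKM for Nkg7, and 24 of the 33 genes were below 1 RPKM. The highest medians after Nkg7, a membrane protein of cytotoxic granules, were those of Tcf7, a transcription factor of naive and memory T cells, at 3.06 RPKM, and of the antigen receptor chains Cd79a at 2.69 and Cd79b at 2.56 RPKM. The CD3 chains lay lower, with Cd3d at 0.548, Cd3g at 0.538 and Cd3e at 0.448 RPKM. These 3 medians lay within the spread of each other, since each of the 3 genes ranged over libraries from under 0.18 to over 2.5 RPKM. Exons of 7 members overlap another annotated gene, among them Cd3e and the antisense gene Gm48719, Cd22 and the antisense gene Gm29439, and Mzb1 and Spata24. The strand of counting is not given in the sources used here, so reads of such pairs cannot be told apart.

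**Figure D1:**
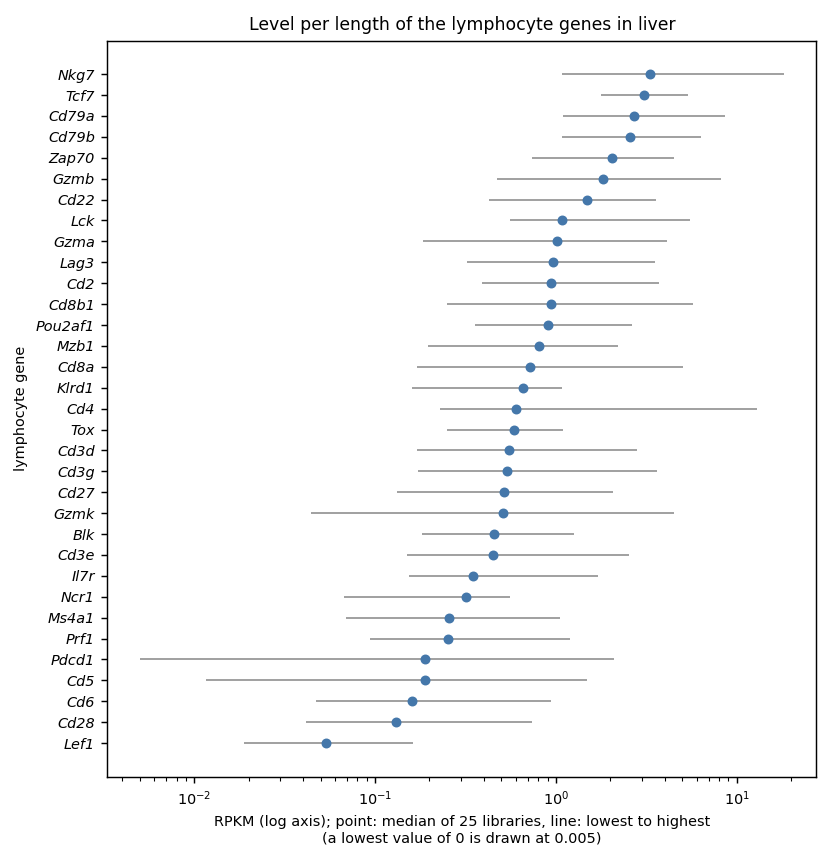
Level per exon length of each lymphocyte gene, in RPKM on a log axis. Points are medians of 25 libraries and lines run from the lowest to the highest library, from Nkg7 at 3.32 RPKM down to Lef1 at 0.0534 RPKM.

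The 3 CD3 chains lie side by side on mouse chromosome 9. The starts of Cd3d and Cd3g are 1355 bases apart on opposite strands. Promoter windows of these genes and of Cd79a are shown because their products carry the antigen receptors of T cells and of B cells. Each window runs from 250 bases before to 50 bases after the start in RefSeq (GRCm38.p6), 5′ to 3′ on the strand of the gene. Capitals mark CAGNTG, a narrower form of the E-box CANNTG, searched on both strands, so that CANCTG, its form on the other strand, is capitalised too. Other forms of the E-box were not searched, and E-box below means this form only. The windows are chr9:44981536-44981835 (+) for Cd3d, chr9:45009562-45009861 (-) for Cd3e, chr9:44980382-44980681 (-) for Cd3g and chr7:24897247-24897546 (+) for Cd79a.
Cd3d: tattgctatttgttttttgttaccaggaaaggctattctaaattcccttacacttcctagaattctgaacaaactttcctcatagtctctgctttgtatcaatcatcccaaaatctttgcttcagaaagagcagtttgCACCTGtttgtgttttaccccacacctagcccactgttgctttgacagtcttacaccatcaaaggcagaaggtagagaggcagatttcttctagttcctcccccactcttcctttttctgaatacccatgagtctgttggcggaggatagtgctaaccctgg
Cd3e: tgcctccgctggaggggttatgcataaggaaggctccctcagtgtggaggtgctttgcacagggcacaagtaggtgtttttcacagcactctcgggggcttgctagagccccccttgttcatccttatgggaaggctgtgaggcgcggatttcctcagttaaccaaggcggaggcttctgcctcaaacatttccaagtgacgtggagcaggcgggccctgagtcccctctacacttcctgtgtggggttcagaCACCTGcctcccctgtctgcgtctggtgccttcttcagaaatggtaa
Cd3g: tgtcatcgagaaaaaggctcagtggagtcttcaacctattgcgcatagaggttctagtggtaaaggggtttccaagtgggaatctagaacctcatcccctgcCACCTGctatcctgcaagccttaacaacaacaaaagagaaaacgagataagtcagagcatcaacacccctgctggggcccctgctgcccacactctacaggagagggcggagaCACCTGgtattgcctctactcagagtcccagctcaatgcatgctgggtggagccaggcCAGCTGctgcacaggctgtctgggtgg
Cd79a: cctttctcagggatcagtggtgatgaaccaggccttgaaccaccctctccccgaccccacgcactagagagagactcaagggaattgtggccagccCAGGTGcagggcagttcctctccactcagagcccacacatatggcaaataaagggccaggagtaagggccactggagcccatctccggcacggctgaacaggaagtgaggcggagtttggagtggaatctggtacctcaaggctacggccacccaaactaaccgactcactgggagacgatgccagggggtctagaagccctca
Cd3d, Cd3e and Cd79a each held 1 E-box and Cd3g held 3. Windows were at hand for 21 of the 33 members, 29 windows in all, and 24 of the 29 (82.8%) held an E-box, against 51.4% of 32851 promoter windows of the same length. The ETS core GGAAG, searched on both strands, was in 79.3% of the member windows and in 71.4% of all. A match describes letters only, and no binding was measured.

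The spread of the lymphocyte genes lay mostly in a few single libraries. The library labelled Control_p53KO 3 had the highest level of all 25 libraries for 21 of the 33 genes, 20 of them T and NK cell genes and 1 a B cell gene (Cd22), and lay above the median of all libraries for 32. HFD_Rosa26KO 3 was highest for 5 genes, all of B cells (Cd79a, Cd79b, Ms4a1, Blk and Pou2af1), and also lay above the median for 32. HFD_p53KO 3 was highest for 3 genes, all of naive and memory T cells (Il7r, Tcf7 and Lef1), and above the median for 30. At the other end, HFD_p53KO 7 was lowest for 11 genes, HFD_p53KO 5 for 7 and Control_Rosa26KO 5 for 4. HFD_p53KO 7 was at the same time the highest of all libraries for the T cell kinase Zap70. With bulk RNA, fewer cells of a type and less RNA per cell cannot be told apart.

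**Figure D2:**
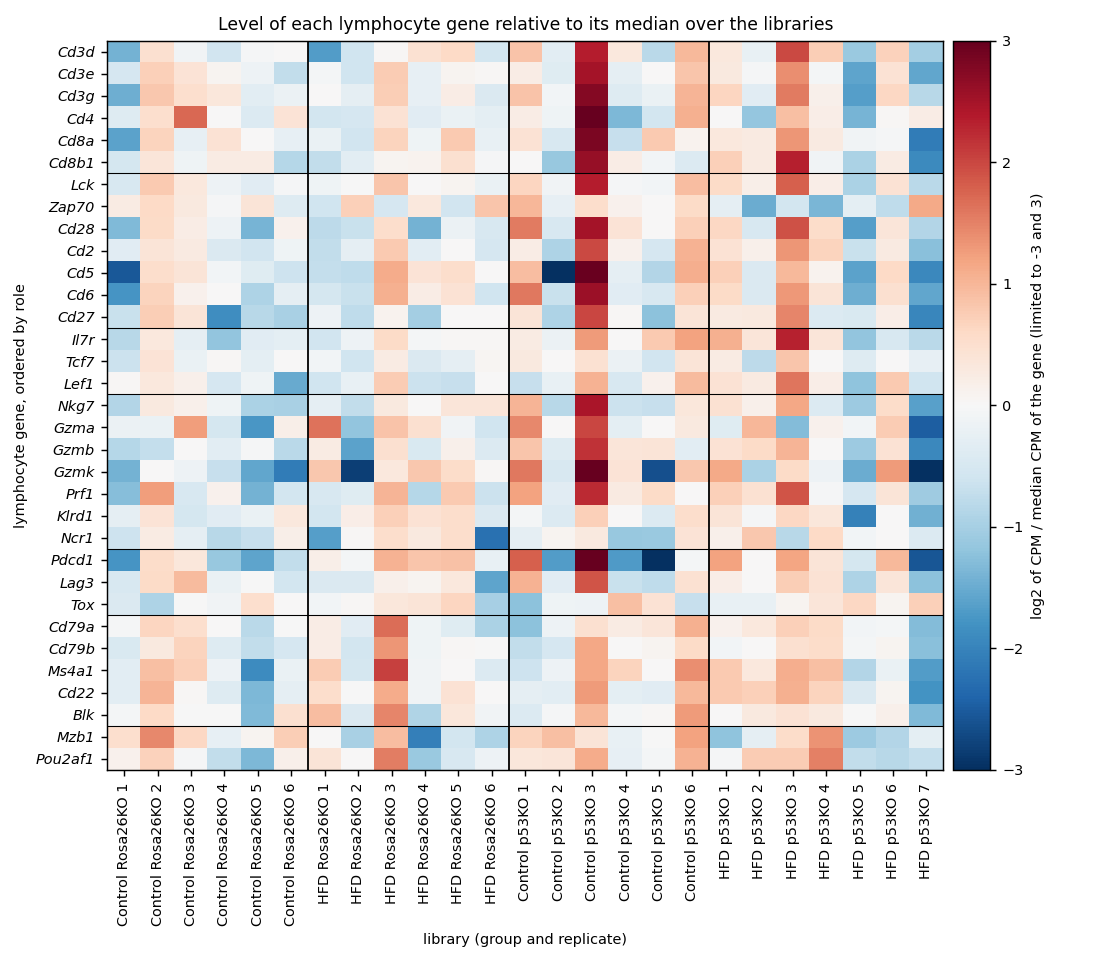
Level of each of the 33 lymphocyte genes (rows, by role) in each library (columns, by group), as log2 of CPM over the median CPM of the gene. The column of Control_p53KO 3 is dark in the T and NK cell rows, HFD_Rosa26KO 3 is red in the B cell rows, and HFD_p53KO 7 is blue in most rows and red for Zap70 and Tox.

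Markers of other cell types were also high in the library labelled Control_p53KO 3. The summed level of 10 Kupffer cell markers, the resident macrophages of the liver, was 3626 CPM there and 250.2 to 1386 CPM in the other libraries. Clec4f, Vsig4, Adgre1, Csf1r, Folr2, C1qa and C1qb had their highest counts in that library. Marco did not, with 16 counts against 3 to 826 elsewhere, nor did Timd4, with 107 against 36 to 361, nor Cd5l, with 7605 against 757 to 8427. Each macrophage list held 10 markers, and none of them was at 0 in all libraries. Markers of recruited macrophages summed to 1387 CPM, the highest of all libraries, dendritic cell markers to 29.06 CPM and genes of lymphocyte attraction and lymphoid aggregates to 424.1 CPM. Of the recruited macrophage markers, Trem2, Lyz2 and Cd68 had their highest counts in that library and the others did not. Hepatocyte markers summed to 74900 CPM, the lowest of its group. In HFD_p53KO 7 the stellate cell markers (128.8 CPM) and the endothelial markers (110.8 CPM) were the lowest of all libraries. Neutrophil markers summed to 617.4 CPM in Control_p53KO 1, 401.1 CPM in HFD_Rosa26KO 6 and 110.8 CPM in Control_p53KO 3, and to between 7.134 and 60.13 CPM elsewhere. The part of these cells in the lymphocyte values was not tested.

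Among the genes of the T cell receptor complex, Cd3e showed the pattern of the list. Its lowest, median and highest levels were 1.10, 1.79 and 2.98 CPM in Control_Rosa26KO, 1.21, 1.82 and 3.09 CPM in HFD_Rosa26KO, 1.43, 1.98 and 10.3 CPM in Control_p53KO, and 0.614, 1.79 and 4.85 CPM in HFD_p53KO. The 4 medians lay close together, and the ranges of all groups overlapped. The next highest level in Control_p53KO was 3.26 CPM. Against its median over all libraries, the library labelled Control_p53KO 3 was 5.65-fold higher for Cd3e, 5.15-fold for Cd3d and 6.74-fold for Cd3g, while HFD_p53KO 3 was 2.65-fold, 3.95-fold and 2.94-fold higher for the same genes.

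The coreceptor of helper T cells, Cd4, had the highest single value relative to its median of all 33 genes. In Control_p53KO its lowest, median and highest levels were 0.951, 2.53 and 52.4 CPM, and the next highest was 5.11 CPM. In the other groups they were 1.83, 2.82 and 8.07 CPM (Control_Rosa26KO), 1.66, 1.94 and 3.27 CPM (HFD_Rosa26KO) and 0.920, 2.50 and 4.53 CPM (HFD_p53KO). A single library therefore held 1136 of the 2371 counts of Cd4 in the whole series. In that same library Cd4 was 21.5-fold above its median and Cd8a 7.04-fold, so the coreceptors were not raised in the same proportion. Summed Kupffer cell markers were also highest there, at 3626 CPM. Bulk RNA does not show which cells held the Cd4 reads.

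The coreceptor of cytotoxic T cells, Cd8a, had lowest, median and highest levels of 0.857, 2.42 and 4.14 CPM in Control_Rosa26KO and 1.76, 2.33 and 4.52 CPM in HFD_Rosa26KO. In p53KO they were 1.62, 3.17 and 18.4 CPM on control diet and 0.617, 3.15 and 6.52 CPM on HFD. Both ends of this gene lay in single p53KO libraries, Control_p53KO 3 and HFD_p53KO 7. Cd8b1, its partner chain, was at 8.49 CPM in Control_p53KO 3 and 7.03 CPM in HFD_p53KO 3, and between 0.370 and 2.29 CPM elsewhere.

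Genes of T cell signalling and costimulation were also highest in the library labelled Control_p53KO 3, with Zap70 as the exception. The kinase Lck reached 16.2 CPM there against 1.64 to 10.9 CPM elsewhere, and the surface receptors Cd2, Cd5, Cd6 and Cd27 reached 6.46, 7.33, 7.47 and 4.84 CPM. Cd28, the costimulatory receptor, had lowest, median and highest levels of 0.305, 0.801 and 1.20 CPM in Control_Rosa26KO and 0.298, 0.538 and 1.15 CPM in HFD_Rosa26KO. In p53KO they were 0.572, 1.18 and 4.52 CPM on control diet and 0.256, 1.02 and 3.0 CPM on HFD, so the medians were higher and the ranges overlapped.

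Zap70, which binds the phosphorylated CD3 complex, was highest in a library where all 3 CD3 chains lay below their medians. Its lowest, median and highest levels were 4.64, 7.36 and 9.31 CPM in Control_Rosa26KO, 4.04, 5.96 and 10.9 CPM in HFD_Rosa26KO, 5.15, 7.76 and 12.2 CPM in Control_p53KO, and 2.20, 4.21 and 13.5 CPM in HFD_p53KO. The value of 13.5 CPM was that of HFD_p53KO 7, and the other 6 HFD_p53KO libraries were at 5.08 CPM or below. In HFD_p53KO 7 Zap70 was at 2.21-fold its median and Cd3e at 0.338-fold. The cells that held the Zap70 reads were not determined, so its changes cannot be assigned to lymphocytes.

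Of the naive and memory T cell genes, Tcf7 had a narrower range than Il7r and Lef1. It ran from 4.64 to 14.2 CPM over all libraries, with group medians of 7.57, 7.12, 8.98 and 8.02 CPM in Control_Rosa26KO, HFD_Rosa26KO, Control_p53KO and HFD_p53KO. Its lowest and highest levels in those groups were 5.14 and 10.6, 5.29 and 9.46, 5.43 and 11, and 4.64 and 14.2 CPM. Control_p53KO 3 was only 1.37-fold above the median for Tcf7, against 5.65-fold for Cd3e. Il7r, the receptor for the survival factor interleukin 7, had lowest, median and highest levels of 0.719, 1.30 and 2.00 CPM in Control_Rosa26KO, 1.09, 1.61 and 2.43 CPM in HFD_Rosa26KO, 1.43, 2.35 and 3.97 CPM in Control_p53KO, and 0.716, 2.08 and 8.04 CPM in HFD_p53KO. Lef1, a factor related to Tcf7, had group medians of 0.454, 0.357, 0.457 and 0.570 CPM in the same order, with lowest levels of 0.166, 0.293, 0.289 and 0.204 CPM and highest levels of 0.579, 0.795, 0.969 and 1.43 CPM.

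**Figure D3:**
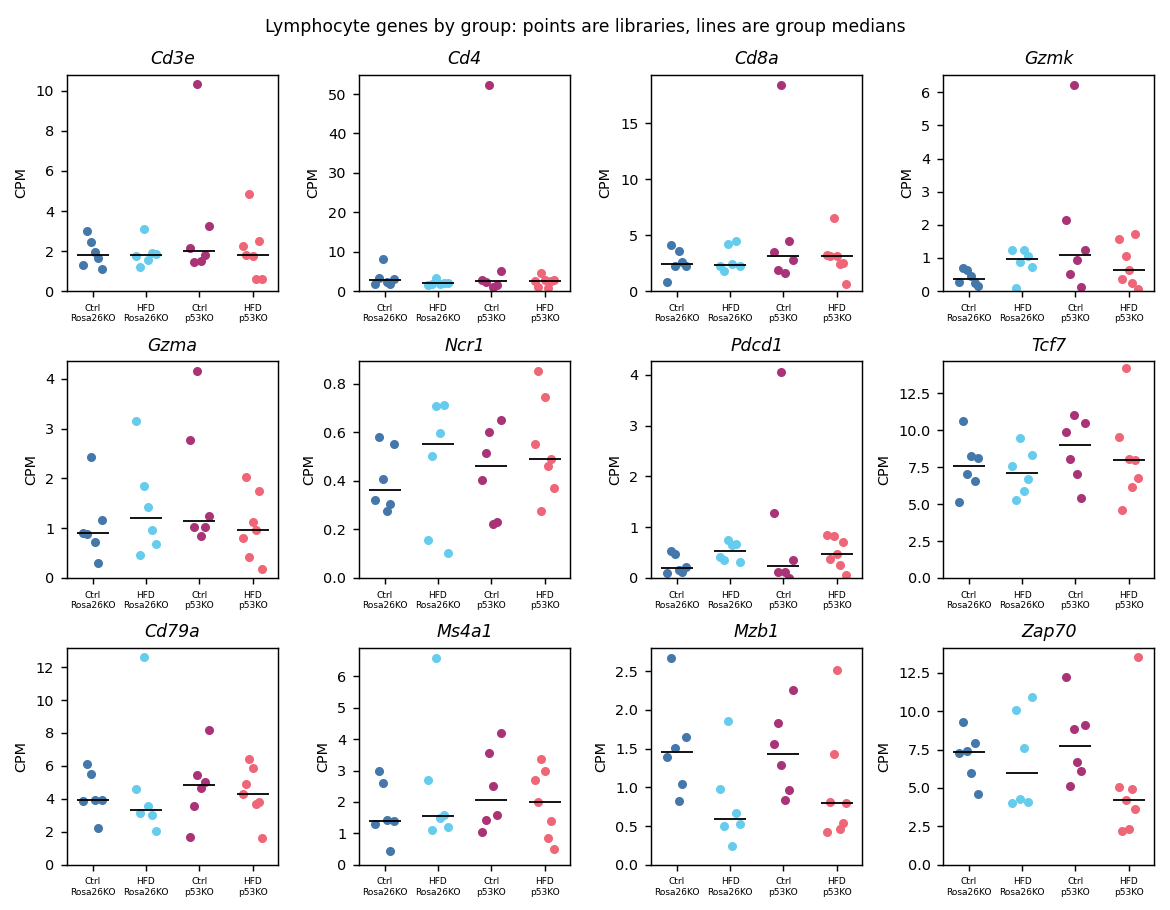
CPM of 12 lymphocyte genes by group. Points are libraries and lines are group medians; single p53KO libraries stand far above the rest for Cd3e, Cd4, Cd8a, Gzmk and Pdcd1, and 1 HFD_Rosa26KO library for Cd79a (12.6 CPM) and Ms4a1 (6.58 CPM).

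The cytotoxic and NK cell genes comprise granule genes and receptors. Gzmk, which encodes granzyme K, had lowest, median and highest levels of 0.166, 0.355 and 0.713 CPM in Control_Rosa26KO and 0.101, 0.965 and 1.25 CPM in HFD_Rosa26KO. In p53KO they were 0.114, 1.10 and 6.23 CPM on control diet and 0.0617, 0.640 and 1.74 CPM on HFD. The Control_Rosa26KO median was the lowest of the 4, and the ranges overlapped. These levels rest on few reads, between 1 and 135 counts a library.

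The other granzymes differed less between group medians. Gzma had lowest, median and highest levels of 0.305, 0.901 and 2.44 CPM in Control_Rosa26KO, 0.453, 1.20 and 3.16 CPM in HFD_Rosa26KO, 0.839, 1.14 and 4.15 CPM in Control_p53KO, and 0.185, 0.972 and 2.03 CPM in HFD_p53KO. Gzmb had 1.45, 1.85 and 2.61 CPM, 0.856, 2.45 and 3.67 CPM, 2.00, 3.39 and 11.8 CPM, and 0.679, 3.52 and 5.27 CPM in the same order. Nkg7 reached 16.7 CPM and Prf1, which encodes perforin, 3.09 CPM in the library labelled Control_p53KO 3, each the highest of all libraries.

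The NK cell receptor gene Ncr1 was highest in another library, HFD_p53KO 2. Its lowest, median and highest levels were 0.276, 0.364 and 0.579 CPM in Control_Rosa26KO, 0.104, 0.550 and 0.711 CPM in HFD_Rosa26KO, 0.224, 0.460 and 0.651 CPM in Control_p53KO, and 0.277, 0.490 and 0.854 CPM in HFD_p53KO. Control_p53KO 3 was 1.22-fold above the median for Ncr1 and 1.65-fold for Klrd1, an NK and T cell receptor chain, against 8.74-fold for Gzmk. Ncr1 was measured with 2 to 21 counts a library, which limits what could be seen.

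Of the genes tied to T cell exhaustion, Pdcd1 was the sparsest, with 0 to 88 counts a library. It had lowest, median and highest levels of 0.107, 0.193 and 0.535 CPM in Control_Rosa26KO, 0.313, 0.535 and 0.751 CPM in HFD_Rosa26KO, 0, 0.233 and 4.06 CPM in Control_p53KO, and 0.0617, 0.480 and 0.847 CPM in HFD_p53KO. The second highest Control_p53KO library was at 1.27 CPM. Lag3, which encodes an inhibitory receptor for MHC class II, had group medians of 1.89, 1.83, 2.20 and 2.33 CPM in the same order, lowest levels of 1.38, 0.677, 1.20 and 0.864 CPM and highest levels of 3.95, 2.55, 7.47 and 3.42 CPM. Tox, a transcription factor of exhausted T cells, was at 0.907-fold its median in Control_p53KO 3 and 1.64-fold in HFD_p53KO 7, the reverse of Pdcd1. Which cells of the liver held the Tox reads was not determined.

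Of the 7 B cell genes, 5 were highest in HFD_Rosa26KO 3, where 25 of the 26 T and NK cell genes also lay above their medians, while Cd22 was highest in the library labelled Control_p53KO 3. Cd79a had lowest, median and highest levels of 2.26, 3.92 and 6.15 CPM in Control_Rosa26KO, 2.03, 3.35 and 12.6 CPM in HFD_Rosa26KO, 1.68, 4.84 and 8.16 CPM in Control_p53KO, and 1.60, 4.28 and 6.42 CPM in HFD_p53KO. Ms4a1, which encodes the surface protein CD20, had 0.427, 1.41 and 2.98 CPM, 1.11, 1.54 and 6.58 CPM, 1.04, 2.06 and 4.21 CPM, and 0.494, 1.99 and 3.37 CPM in the same order. HFD_Rosa26KO 3 was highest for both, at 3.21-fold and 4.14-fold the median. Cd22, an inhibitory receptor, and Blk, a kinase, were also above their medians in that library, at 2.15-fold and 2.77-fold.

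Mzb1, a chaperone of antibody-secreting cells, had lowest, median and highest levels of 0.829, 1.45 and 2.67 CPM in Control_Rosa26KO, 0.238, 0.595 and 1.86 CPM in HFD_Rosa26KO, 0.839, 1.43 and 2.25 CPM in Control_p53KO, and 0.423, 0.802 and 2.51 CPM in HFD_p53KO. Both HFD medians were below both control-diet medians, and the ranges overlapped. Pou2af1, a coactivator of B cell transcription, had medians of 2.39, 2.20, 2.96 and 2.25 CPM in the same order.

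Whether HFD changed the lymphocyte genes was tested first in Rosa26KO. In edgeR's quasi-likelihood test with Benjamini-Hochberg adjustment over all genes, 0 of 33 members passed an adjusted p of 0.05, where 0.446% of all genes tested were higher and 1.06% lower. DESeq2 and limma voom also called 0 members, where DESeq2 called 1.58% of all genes higher and 2.78% lower and limma voom 10.6% and 10.9%. At an unadjusted p under 0.05 the count was 0 in edgeR (7.55% of all genes higher and 9.91% lower), 0 higher and 1 lower in DESeq2 (8.25% and 10.5%), and 2 higher in limma voom (18.5%). The members of smallest p were Mzb1 (log2 fold change -0.92, SE 0.44, edgeR adjusted p 0.286), Gzmk (1.06, SE 0.73, edgeR adjusted p 0.460) and Pdcd1 (0.93, SE 0.81, edgeR adjusted p 0.565). The median log2 fold change of the 33 was 0.18, with 26 above 0, against a median of 0.003 over all genes. Without HFD_Rosa26KO 3 it was 0.016, with 17 above 0, and it was 0.32 without Control_Rosa26KO 2, 0.30 without HFD_Rosa26KO 6 and 0.12 without HFD_Rosa26KO 5. Within the 3 runs of library numbers (2 libraries against 2) the median was -0.21, 0.29 and 0.34.

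In p53KO, 0 of 33 members passed the adjusted threshold in edgeR, where 1.62% of all genes were higher and 1.25% lower. Only Cd4 was below an unadjusted p of 0.05 (1 lower, against 9.78% of all genes lower and 9.05% higher), with a log2 fold change of -2.16 (SE 0.69, edgeR adjusted p 0.0829). DESeq2 called Cd4 lower (adjusted p 0.0204), 1 member where 3.03% of all genes were called lower, 3.4% higher and, before adjustment, 9.14% higher. limma voom called Zap70 lower (adjusted p 0.0224), 1 member where 7.62% of all genes were. Without the library labelled Control_p53KO 3 the log2 fold change of Cd4 was -0.07, and without Control_p53KO 4 it was -2.40 with an edgeR adjusted p of 0.0333. Zap70 stood at -0.65 (SE 0.35, edgeR adjusted p 0.316), and at -1.10 (edgeR adjusted p 0.0274) without HFD_p53KO 7. Gzmk stood at -1.19 (SE 0.64, edgeR adjusted p 0.324). The median of the 33 was -0.40, with 5 above 0, against -0.024 over all genes, and 0.003 with 17 above 0 without Control_p53KO 3. Without HFD_p53KO 3 it was -0.68, with 7 members below an unadjusted p of 0.05, and without HFD_p53KO 7 it was -0.26. The count was 4 without Control_p53KO 2, and 2 without Control_p53KO 5 or HFD_p53KO 1, 4, 6 or 7. For fits without single libraries the share of all genes below that p was not counted, so these counts lack a background. In the fit to all libraries, neutrophil markers had a median of -2.76 with 11 of 11 below 0, Kupffer cell markers -0.69 with 9 of 10, and endothelial markers -0.40 with 7 of 8. Summed neutrophil markers were at 617.4 CPM in Control_p53KO 1, against a group median of 24.18 CPM. Summed Kupffer cell markers were at 3626 CPM in Control_p53KO 3, against a group median of 717.6 CPM. No gene of these lists passed the adjusted threshold in edgeR. DESeq2 called 6 neutrophil markers, 1 Kupffer cell marker and 1 endothelial marker. limma voom called 1 endothelial marker and no neutrophil or Kupffer cell marker. Within the 3 runs the median of the 33 was 0.26, -0.17 and -0.77, with 3 libraries against 2 in the last.

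Averaged over genotypes, 0 of 33 members passed in edgeR, where 4.64% of all genes were higher and 5.07% lower. At an unadjusted p under 0.05, 2 members were lower, Cd4 (log2 fold change -1.44, SE 0.50, edgeR adjusted p 0.0716) and Mzb1 (-0.74, SE 0.31, edgeR adjusted p 0.136), against 13.2% of all genes lower and 11.1% higher. Lag3 followed at -0.43 (SE 0.29, edgeR adjusted p 0.392). DESeq2 called Cd4 lower (adjusted p 0.0210, with 6.8% of all genes called lower). limma voom called 3 members, Zap70 lower (adjusted p 0.0160), and Pdcd1 (adjusted p 0.00698) and Cd22 (adjusted p 0.0393) higher. In edgeR Pdcd1 stood at -0.0099 (SE 0.84, adjusted p 0.997), on the other side of 0, and Cd22 at 0.23 (SE 0.28, adjusted p 0.671). In limma voom 17.3% and 18.2% of all genes were called lower and higher. Without HFD_Rosa26KO 3 the log2 fold change of Mzb1 was -0.96 with an edgeR adjusted p of 0.0485, and without HFD_p53KO 4 it was -0.94 with an adjusted p of 0.0411. Cd4 passed in edgeR without Control_p53KO 1 (-1.54, adjusted p 0.0491) and without Control_p53KO 4 (-1.56, adjusted p 0.0358), and stood at -0.39 without Control_p53KO 3. The median of the 33 was -0.15, and ranged from -0.29 without HFD_p53KO 3 to 0.13 without Control_p53KO 3. It was also over 1.5 times smaller without Control_Rosa26KO 2 (-0.033) or 3 (-0.093), HFD_Rosa26KO 2 (-0.076), or HFD_p53KO 5 (-0.086) or 7 (-0.062), and larger without Control_p53KO 2 (-0.23).

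Some markers of other cells also moved on HFD in the average of genotypes. Of 8 hepatocyte markers 4 fell, namely Cyp3a11 (log2 fold change -1.26), Serpina1c (-0.67), Alb (-0.63) and Apoa1 (-0.52), with edgeR adjusted p from 0.0135 to 0.0491, and all 8 were below 0. The haemoglobin genes Hbb-bt (1.29), Hbb-bs (1.26), Hba-a1 (1.15) and Hba-a2 (1.15) rose, with edgeR adjusted p from 0.0321 to 0.0425, although near-identical copies among them may share reads. In limma voom only Hbb-bs passed (adjusted p 0.0432), and the others stood at 0.051 to 0.065. Hba-a1 had 54842 counts in HFD_Rosa26KO 1, 41591 in HFD_Rosa26KO 6 and 33529 in HFD_p53KO 5. The other HFD libraries held 5756 to 12349 counts, which overlapped the 4761 to 11622 counts on control diet. The endothelial marker Clec4g (-0.58, edgeR adjusted p 0.00816) and the stellate cell marker Reln (-0.57, edgeR adjusted p 0.0380) fell. Their lists as a whole were mixed, with 5 of 8 endothelial markers (median -0.098) and 5 of 8 stellate cell markers (median -0.17) below 0 and 3 of each list above. Reln also fell in p53KO (-1.06, edgeR adjusted p 0.0178), and Slc4a1, an erythroid gene, rose in Rosa26KO (4.94, edgeR adjusted p 0.0477, limma voom adjusted p 0.109). The part of these cells in the HFD values of the lymphocyte genes was not tested.

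The comparison of genotypes on control diet asked whether lymphocyte genes differed between old livers that carried the p53 knockout and those that carried the Rosa26 knockout. No member passed the adjusted threshold in edgeR, 0 of 33, as 0% of all genes did in either direction. At an unadjusted p under 0.05, 9 members were higher and 0 lower in Control_p53KO, where 5.84% of all genes were higher and 4.12% lower. They were Gzmk, Gzmb, Cd28, Pdcd1, Cd4, Il7r, Nkg7, Cd6 and Cd3d. DESeq2 gave 13 higher (6.76% of all genes) and limma voom 1 higher (2.3%), and neither called a member after adjustment, where DESeq2 called 0.00709% of all genes lower. Gzmk had a log2 fold change of 2.16 (SE 0.72, edgeR adjusted p 0.453), Gzmb 1.22 (SE 0.44, edgeR adjusted p 0.462) and Cd28 1.28 (SE 0.53, edgeR adjusted p 0.473).

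Fitted genotype differences on control diet were above 0 for 32 of 33 members, with a median of 0.80 against 0.010 over all genes. By role the median was 1.05 for the T cell receptor complex, 0.85 for T cell signalling, 1.0 for cytotoxic and NK cell genes, 0.45 for naive and memory genes, and 0.37 for B cell surface genes. The median moved by over 1.5 times with 1 library, and the count below an unadjusted p of 0.05 with more. Without Control_p53KO 3, whose Trp53 level lay in the Rosa26KO range, the median of the 33 was 0.23, 0 members were below an unadjusted p of 0.05, and 28 were above 0. That count was 2 without Control_Rosa26KO 1, 3 without Control_Rosa26KO 5, and 15 without either Control_Rosa26KO 2 or Control_p53KO 2. The share of all genes below that p was not counted in these fits, so the counts cannot be set against it. Without Control_p53KO 3, Gzmk stood at 1.24 (SE 0.66), Gzmb at 0.66 (SE 0.39), Il7r at 0.86 (SE 0.47) and Cd4 at -0.44 (SE 0.43). Kupffer cell markers moved the same way in the fit to all libraries, with a median log2 fold change of 0.84 and 8 of 10 above 0. So did neutrophil markers, with a median of 3.28, 11 of 11 above 0 and 10 below an unadjusted p of 0.05, and proliferation genes, with a median of 0.34 and 8 of 8 above 0. The summed neutrophil markers were highest in another library, Control_p53KO 1, at 617.4 CPM against a Control_p53KO median of 24.18 CPM. Summed Kupffer cell markers were highest in Control_p53KO 3, at 3626 CPM against a Control_p53KO median of 717.6 CPM. No gene of these 3 lists passed the adjusted threshold. Within the 3 runs of library numbers the median of the 33 was -0.005, 0.79 and 0.59 with 2 libraries against 2, and the second run holds Control_p53KO 3.

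**Figure D4:**
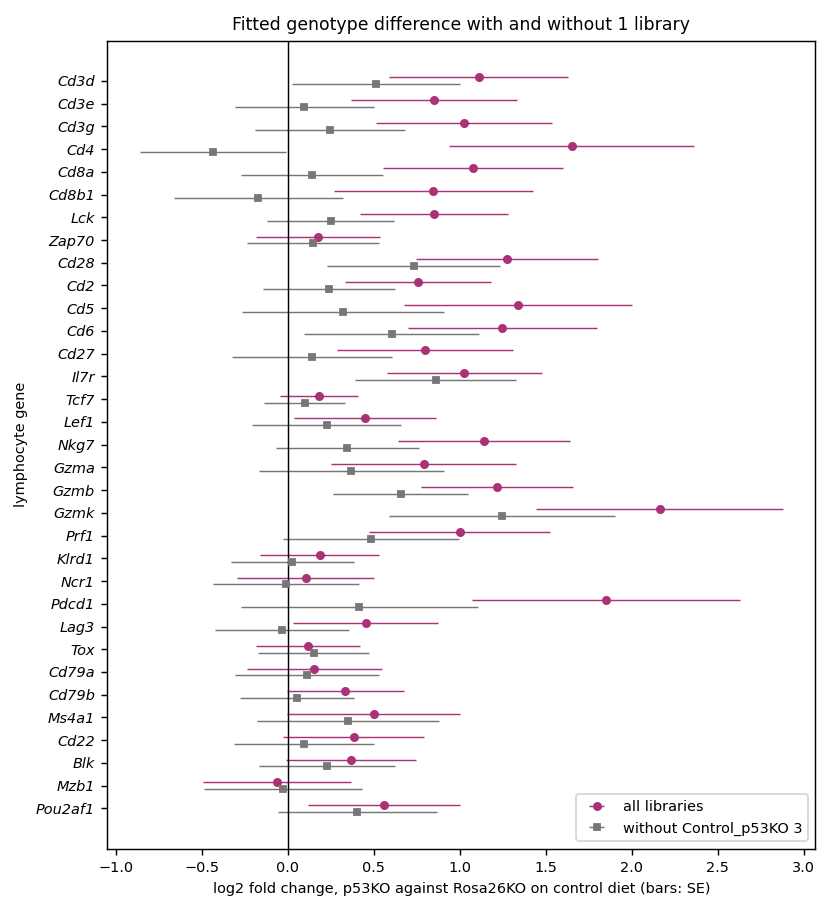
Fitted log2 fold change of each lymphocyte gene between p53KO and Rosa26KO on control diet, with all libraries and without Control_p53KO 3; bars are standard errors. The median over the 33 genes was 0.80 with all libraries and 0.23 without that library.

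On HFD the fitted genotype differences were mostly small. No member passed in edgeR (0 of 33, with 0% of all genes in either direction), and 0 were below an unadjusted p of 0.05, where 1.73% of all genes were higher and 1.88% lower. DESeq2 also gave 0 (2.11% of all genes lower, and 0.00709% lower after adjustment) and limma voom 1 higher and 1 lower (4.33% and 3.96% of all genes). Il7r (0.68, SE 0.43), Cd28 (0.82, SE 0.52) and Lef1 (0.58, SE 0.39) had the smallest p, each with an edgeR adjusted p of 0.9998. Their highest values were those of HFD_p53KO 3, and without it the log2 fold change of Il7r was 0.07. The median of the 33 was 0.12, and ranged from -0.077 without HFD_p53KO 3 to 0.36 without HFD_Rosa26KO 3. It also moved by over 1.5 times without HFD_Rosa26KO 2 (0.076) or 5 (0.21), and without HFD_p53KO 5 (0.24), 6 (0.19) or 7 (0.26). Within the 3 runs it was 0.50, 0.46 and -0.43.

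Averaged over diets, 0 of 33 members passed in edgeR, with 0% of all genes in either direction. At an unadjusted p under 0.05, 5 members were higher (2.36% of all genes) and 0 lower (1.69%), namely Cd28 (log2 fold change 1.05, SE 0.37), Il7r (0.85, SE 0.31), Gzmb (0.76, SE 0.31), Cd3d (0.89, SE 0.36) and Gzmk (1.04, SE 0.49), each with an edgeR adjusted p of 0.966. DESeq2 gave 8 higher (2.7% of all genes, and 0.0142% after adjustment, with no member among them) and limma voom 4 higher (3.13%). The median of the 33 was 0.59, and 0.14 without Control_p53KO 3, where 2 members were below an unadjusted p of 0.05, and 0.38 without HFD_p53KO 3, where 3 were. That count was 11 without Control_p53KO 2 or HFD_p53KO 7, 10 without Control_p53KO 5 or HFD_p53KO 5, and 9 without Control_Rosa26KO 2, HFD_Rosa26KO 3 or Control_p53KO 4. Here too the share of all genes below that p in these fits was not counted.

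Whether the diet effect differed between genotypes was tested as an interaction, with the diet difference of Rosa26KO subtracted from that of p53KO. No member passed in edgeR (0 of 33, with 0% of all genes in either direction). Gzmk alone was below an unadjusted p of 0.05 (1 lower, against 4.17% of all genes lower and 4.47% higher), at -2.24 on the log2 scale (SE 0.97, edgeR adjusted p 0.570). Pdcd1 (-1.88, SE 1.06, edgeR adjusted p 0.612) and Gzma (-1.23, SE 0.74, edgeR adjusted p 0.633) followed. DESeq2 gave 1 lower (4.95% of all genes) and limma voom 0 (3.77% higher and 2.77% lower). The median of the 33 was -0.53, and it was -0.064 without Control_p53KO 3, -0.30 without HFD_Rosa26KO 3 and -0.92 without HFD_p53KO 3. Neutrophil markers had a median of -5.21 with 11 of 11 below 0, and Kupffer cell markers -1.23 with 9 of 10 below 0, and none passed the adjusted threshold in edgeR. Single libraries stood out in both lists. Summed neutrophil markers were at 617.4 CPM in Control_p53KO 1 (group median 24.18) and 401.1 CPM in HFD_Rosa26KO 6 (group median 32.46). Summed Kupffer cell markers were at 3626 CPM in Control_p53KO 3 (group median 717.6). The part of these libraries in the 2 medians was not tested. DESeq2 called 3 neutrophil markers and no Kupffer cell marker after adjustment, where it called 0.0213% of all genes lower and 0.0142% higher. limma voom called no gene of either list. The diet and genotype comparisons share groups, so they are not independent of each other.

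Group ranges of CPM overlapped for all 33 members in each of the 4 comparisons of a pair of groups. The number that failed to overlap was 0 of 33 each time, against 3.01% of all genes tested for HFD in Rosa26KO, 1.05% for HFD in p53KO, 0.283% between genotypes on control diet and 0.149% between genotypes on HFD.

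Which lymphocyte genes vary together from liver to liver was asked of 4 pairs, as deviations of log2 CPM from the group mean over 25 libraries, with p-values from 100000 two-sided permutations within groups and adjusted over the 4 pairs. Gzmk followed Cd3e, with Pearson r of 0.76 (permutation p 0.00019, adjusted 0.00076) and Spearman rho of 0.76 (permutation p 0.00016, adjusted 0.00064). Without the 2 libraries farthest from the median of Cd3e, Control_p53KO 3 and HFD_p53KO 3, r was 0.70, and within the 3 runs of library numbers it was 0.77, 0.86 and 0.91. The runs held 8, 8 and 9 libraries, mostly 2 a group, whose deviations from their mean mirror each other. Each within-run r, for this and the other pairs, therefore rests on few independent values. Cd79a also followed Cd3e, with r of 0.53 (permutation p 0.0107, adjusted 0.0215) and rho of 0.63 (permutation p 0.00104, adjusted 0.00208). Without the same 2 libraries r was 0.55, and within runs it was 0.22, 0.44 and 0.40, so each run gave a lower r than the pooled one. The relation of Cd79a no longer passed when single libraries were left out, with r of 0.50 (permutation p adjusted to 0.0879) without HFD_Rosa26KO 3 and 0.44 (adjusted 0.0763) without HFD_p53KO 7.

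Neither Ncr1 nor Mzb1 passed with Cd3e. For Ncr1 r was 0.18 (permutation p 0.360, adjusted 0.360) and rho 0.27 (permutation p 0.181, adjusted 0.181), with r of 0.30 without the 2 libraries and -0.074, 0.31 and 0.20 within runs. For Mzb1 r was 0.32 (permutation p 0.145, adjusted 0.193) and rho 0.30 (permutation p 0.172, adjusted 0.181), with r of 0.35 without the 2 libraries and 0.52, 0.34 and 0.051 within runs. Low counts of Ncr1 and Mzb1 limit the correlation that could be seen, and a difference between the pairs was not tested.

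**Figure D5:**
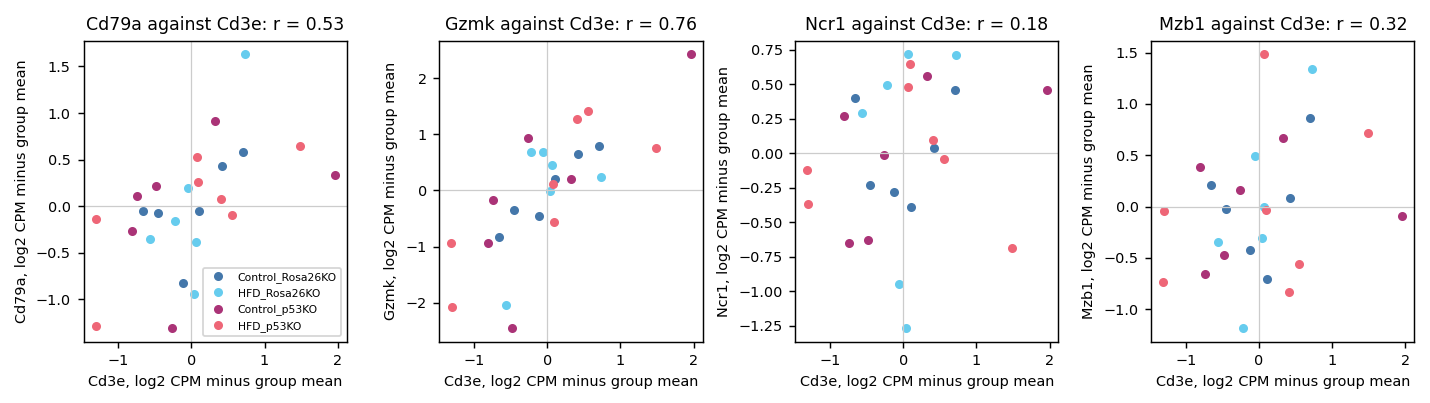
Deviation of log2 CPM from the group mean for Cd79a, Gzmk, Ncr1 and Mzb1 (vertical axes) against Cd3e (horizontal axes). Points are libraries coloured by group; Gzmk lies closest to a line (r = 0.76) and Ncr1 farthest from one (r = 0.18).

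Other genes of the same cells were read beside the members. Of 30 further T and NK cell genes, 24 were tested, and 1 of them passed the adjusted threshold. Themis, a T cell signalling gene required in thymocytes, had lowest, median and highest levels of 0.663, 1.26 and 2.36 CPM in Control_Rosa26KO, 0.938, 9.02 and 11.2 CPM in HFD_Rosa26KO, 0.686, 1.79 and 5.15 CPM in Control_p53KO, and 2.72, 11 and 19.6 CPM in HFD_p53KO. It rose on HFD in Rosa26KO (log2 fold change 2.35, SE 0.58, edgeR adjusted p 0.0415), in p53KO (2.14, SE 0.55, edgeR adjusted p 0.0370) and on average (2.25, SE 0.40, edgeR adjusted p 0.00119). Its ranges overlapped between diets in both genotypes. The rise on average had an edgeR adjusted p of at most 0.00309 with any 1 of the 25 libraries left out. In Rosa26KO the call ended, with edgeR adjusted p of up to 0.101, when any of 10 libraries was left out: Control_Rosa26KO 1, 3, 4, 5 or 6, HFD_Rosa26KO 2, 3, 4 or 5, or Control_p53KO 6. In p53KO it ended, with edgeR adjusted p of up to 0.0866, for any of 9: Control_p53KO 1, 2, 5 or 6, or HFD_p53KO 1, 2, 3, 4 or 6. The log2 fold change ranged from 2.17 to 2.58 in Rosa26KO and from 1.92 to 2.51 in p53KO over these fits. HFD_Rosa26KO 6 and 1 were the lowest HFD libraries, and no CD3 chain passed the adjusted threshold on HFD. Exons of Themis overlap a pseudogene on the opposite strand, 4930519F09Rik.

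The remaining 23 tested T and NK cell genes did not pass in edgeR in any comparison. Of the 24, 0 to 6 were below an unadjusted p of 0.05 in a comparison, DESeq2 called at most 1 and limma voom at most 3. The count of 6 was for HFD in p53KO (9.05% of all genes higher and 9.78% lower) and for genotype on control diet (5.84% and 4.12%). DESeq2 called 1 in each HFD comparison, with at most 6.8% of all genes in 1 direction. The 3 of limma voom were for HFD in Rosa26KO (10.6% and 10.9%) and on average (18.2% and 17.3%). The 24 had a median log2 fold change of 0.72 between genotypes on control diet, all 24 above 0, close to the members. Of 24 further B and plasma cell genes, 20 were in the table and 18 were tested, and 0 passed in edgeR in any comparison. Between 1 and 3 of them were below an unadjusted p of 0.05, DESeq2 called at most 1 and limma voom at most 3. The unadjusted count of 3 was for genotype on control diet (5.84% of all genes higher and 4.12% lower) and the interaction (4.47% and 4.17%). DESeq2 called 1 for HFD in Rosa26KO (1.58% and 2.78%) and on average (5.96% and 6.8%). The 3 of limma voom were for HFD in Rosa26KO (10.6% and 10.9%). Their median log2 fold change for HFD in Rosa26KO was 0.37, with 17 of 18 above 0. The antibody genes Ighm, Igkc, Iglc2 and Igha were those of the list not found in the table under these symbols, so they were not analysed. Of 14 genes of lymphocyte attraction and lymphoid aggregates, 13 were tested and 0 passed in edgeR in any comparison. Between 0 and 2 were below an unadjusted p of 0.05, DESeq2 called at most 1 and limma voom at most 4. The unadjusted count of 2 was for HFD in Rosa26KO (7.55% of all genes higher and 9.91% lower) and on average (11.1% and 13.2%). The calls of DESeq2 (5.96% and 6.8%) and the 4 of limma voom (18.2% and 17.3%) were for HFD on average.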

How the data were processed

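The authors deposited raw counts of reads per gene in 1 table of 24537 genes and 25 liver libraries. Per the submitters' processing notes, STAR and HOMER and the build GRCm38/mm10 were used. Versions and the strand of counting are not stated there. Per the labels' protocols, RNA was extracted with a Zymo kit, polyadenylated RNA was made into libraries with a Watchmaker kit, and paired reads of 75 bases were sequenced. Library totals ran from 16324283 to 21501281 counts, so a gene at 0.1 CPM rests on about 2 counts.

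Groups were taken from the titles. Genes were kept by filterByExpr (minimum count 10, minimum total 15), which left 14133. edgeR 4.0.16 in R 4.3.3 was run with TMM scaling, 1 mean per group and a robust quasi-likelihood fit to all 25 libraries, in 7 comparisons, with Benjamini-Hochberg adjustment over all genes and a threshold of 0.05. SE is the absolute log2 fold change divided by the square root of the quasi-likelihood F statistic. CPM was taken over each library's counts in the genes tested, scaled by TMM, and correlations used log2 CPM with a prior count of 2. RPKM used GENCODE M21 exon lengths, and promoter windows came from RefSeq. DESeq2 1.42.0, limma 3.58.1 (voom with sample quality weights), other scaling, filter and dispersion settings, a replicate block, a term for 3 runs of library numbers, a fit to the compared groups, and fits without single libraries were alternatives. Library numbers in the labels run in order, and replicates 1 and 2, 3 and 4, and 5 to 7 of each group form the 3 runs. What separates the runs is not given. Scripts were tested on simulated data, and Python 3.11.15 with numpy 2.4.6, pandas 2.3.3 and matplotlib 3.10.9 did the rest.

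The members and gene lists were chosen with earlier results of these data known. Full values by group were given for 11 genes of central role, for members past the threshold and for the 3 of smallest p in a comparison where none passed. The other members are given by ranges and counts. Genes of other lists are named where they passed, up to 6 a list, or where genes of a summed list differed from each other.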

Additional observations from a re-analysis of the deposited data

Results flagged for a closer look

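In each group the highest and lowest library of every member was compared with the other libraries of that group on the log2 CPM scale, by Dixon's test, which gave 132 tests and 9 values that stood apart. Chance alone marks about 1 group in 20. HFD_p53KO 7 was low for Cd8a (0.617 CPM, group median 3.15), Cd79a (1.60 CPM, median 4.28), Cd79b (1.54 CPM, median 3.66) and Blk (0.494 CPM, median 1.38). Blk was also low in Control_Rosa26KO 5, at 0.488 CPM against a median of 1.22. HFD_Rosa26KO 3 was high for Cd4 (3.27 CPM, median 1.94) and Lck (5.61 CPM, median 3.14). Gzmk was low in HFD_Rosa26KO 2, at 0.101 CPM against a median of 0.965. Cd8b1 was high in Control_p53KO 3, at 8.49 CPM against a median of 1.35. The Cd3e, Cd4 and Gzmk values of that library were also the highest of all, without standing apart by this measure within their group. No member passed the test of a difference in diet effect between genotypes.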

How the results depend on the processing

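Across the 7 comparisons, edgeR in all 25 libraries called 213, 405 and 1372 genes for HFD (Rosa26KO, p53KO, average) and 0 for genotype and interaction. DESeq2 called 615 and 907 genes for HFD in Rosa26KO and p53KO, 1, 1 and 7 for genotype (control diet, HFD, average) and 5 for the interaction, with 1 member each for HFD in p53KO and on average. limma voom called 3038, 2189 and 5010 for HFD and 2 for genotype on average, with 1 and 3 members for HFD in p53KO and on average, and turned the sign of Gzmk for HFD in p53KO (0.055), Lag3 for HFD on average (0.10), and Pdcd1 for genotype on control diet (-0.19) and the interaction (0.18). It also put Pdcd1 for HFD on average above 0, where edgeR gave -0.0099. The term for runs gave 442 and 633 for HFD in Rosa26KO and p53KO, and the compared groups only 653 and 121. The cause of these shifts was not tested.

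Whether replicate numbers pair the samples was not settled. Same-numbered deviations correlated between -0.398 and 0.604. They did so over 0.1 in 4, 1, 4 and 2 of 6 pairs (HFD in p53KO, HFD in Rosa26KO, genotype on control diet, genotype on HFD). They correlated best with their own number in 2, 1, 2 and 1. A check on 6 pairs a comparison cannot show that no pairing exists. With the replicate block, HFD called 549, 785 and 2282 genes, genotype on average 1, and 1 member in p53KO (Zap70, -1.10, adjusted p 0.0448); HFD_p53KO 7, alone in its block, then carried no weight.

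Leaving out single libraries gave 93 to 509, 173 to 760 and 1012 to 1883 genes for HFD, 0 to 1 for genotype on average and 0 for the other comparisons. Members called ranged from 0 to 1 for HFD in p53KO and on average and were 0 elsewhere. The correlation of Cd79a with Cd3e ran from 0.435 to 0.568, of Gzmk from 0.676 to 0.799, of Mzb1 from 0.245 to 0.410 and of Ncr1 from 0.095 to 0.351. The genotype difference of Cd4 on control diet ran from -0.44 (without Control_p53KO 3) to 2.09.

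A group of 3 settings was chosen after seeing the data. Without Control_p53KO 3 and HFD_p53KO 3, HFD called 332 and 231 genes, genotype on average 1, and Cd4 for genotype on control diet stood at -0.44. Without Control_p53KO 1 and 3, HFD called 530 genes in Rosa26KO and 2495 on average, with 1 member there, and genotype on average 1; signs turned for Gzmk for HFD in p53KO (0.21), for Cd4 (-0.47), Nkg7 (-0.049) and Pdcd1 (-0.85) for genotype on control diet, and for Pdcd1 in the interaction (0.82). Without Control_p53KO 3, HFD_p53KO 3 and HFD_Rosa26KO 3, HFD called 137 and 181 genes and 1 member on average (Mzb1, adjusted p 0.0464), genotype on average 1, Cd4 for genotype on control diet stood at -0.42, and the correlation of Cd79a with Cd3e fell to 0.472 (adjusted p 0.0875).

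Of the other alternatives, deviations from group and run means gave a correlation of Cd79a with Cd3e of 0.383 (adjusted p 0.244). Themis for HFD on average passed in all settings. It did not pass without the filter on low counts in either genotype (adjusted p 0.0583 in Rosa26KO and 0.0502 in p53KO), nor in p53KO with the compared groups only (adjusted p 0.0849), nor in p53KO under the 3 settings chosen after seeing the data (adjusted p 0.0604 to 0.0802), nor in Rosa26KO without the 3 libraries (adjusted p 0.0776). Members at a few counts a library, such as Ncr1, Pdcd1 and Gzmk, limit what these libraries could show.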
